A study of Mus musculus with 6 samples.

Results

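The genes described here are 10 non-collagen mesenchymal genes of cultured mouse germline stem (GS) cells: Vim, Fbln2, Fn1, Sparc, Postn, Lum, Dcn, Thbs1, Bgn and Acta2. They were chosen by symbol from 32285 genes, partly because Vim and Fbln2 had been seen at lower counts in the Space columns of the same table. GS cells are spermatogonia with stem cell activity, grown with GDNF and FGF2 on a layer of mouse embryonic fibroblasts (MEFs). The cells came from testes of mice 2 to 3 days old of the DBA/2 strain that carried the transgene Tg14(act-EGFP-OsbY01), and all were frozen and stored for 6 months. The 3 Space libraries came from vials kept on the International Space Station (ISS) and the 3 Ground libraries from vials kept on Earth. According to the study, RNA was taken on the day after thawing, without passage. Both groups were thus frozen, thawed and shared the transgene, and a group without freezing was not analysed here. Whether feeder cells were removed before RNA extraction is not given in the sources used here, and although the study speaks of separate lines of Space and Ground cells, no label ties a library to a line.

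The group names follow the sample titles, and the columns of the deposited counts carry the same names. In each of the 6 libraries the treatment label contradicts the title. Every direction below would thus change sign if the labels, and not the titles and column names, were right.

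These genes encode parts of the scaffold that fibroblasts and other mesenchymal cells build around and within themselves. Vimentin forms the intermediate filaments of mesenchymal cells, and smooth muscle α-actin forms the contractile filaments of myofibroblasts and smooth muscle. Fibronectin and fibulin-2 are laid down in the extracellular matrix, where integrins bind fibronectin. Lumican, decorin and biglycan are small leucine-rich proteoglycans, and SPARC, periostin and thrombospondin-1 are matricellular proteins, which modulate how cells attach to matrix rather than carry load. In the testis, such genes are expressed mainly by somatic cells such as peritubular, interstitial and, for vimentin, Sertoli cells.

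Total counts lay between 19015985 and 24110916 per library, and mitochondrial genes took between 2.51% and 11.5% of them. Markers of the labelled cell type were present. The 16 genes of a germ cell list, among them Dazl, Ddx4, Ret and Zbtb16, summed to 4426 to 4902 CPM in Ground and 4510 to 4937 in Space, with none at 0. CPM, counts scaled to a common library size, was here computed with library sizes adjusted with TMM factors (trimmed mean of M-values). Over the 1000 most variable genes, each library was nearest to a library of the other group (Ground-1 to Space-3, Ground-2 to Space-2 and Ground-3 to Space-1), with Pearson's r of centred log2 CPM of 0.59, 0.038 and 0.37. This is a description across genes, and the labels name no such pairs.

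All 10 genes passed the filter on low counts, and none was at 0 in any library. All 10 had a lower mean in Space than in Ground, where 51.3% of the 15104 genes tested were lower. Their median log2 fold change was -0.55, against -0.0020 over all genes tested. The Space and Ground libraries did not overlap for 2 of them, Fbln2 and Thbs1, where 1.98% of all genes had all 3 Space libraries below all 3 Ground libraries. No gene of the table passed edgeR's quasi-likelihood test at a Benjamini-Hochberg adjusted p under 0.05 (0 of 15104, 0%), so none of the 10 did. Without adjustment, 92 genes had p under 0.05, of which 68 were lower (0.45%) and 24 higher (0.159%) in Space. These are fewer than evenly spread p-values would give, so the lack of calls does not show that the groups were equal. DESeq2 and limma-voom also called 0 genes, with 45 and 88 genes at an unadjusted p under 0.05. Because the set was assembled with this contrast known, these counts and all fold changes of the 10 genes are descriptions and no p is given for them.

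**Figure D1:**
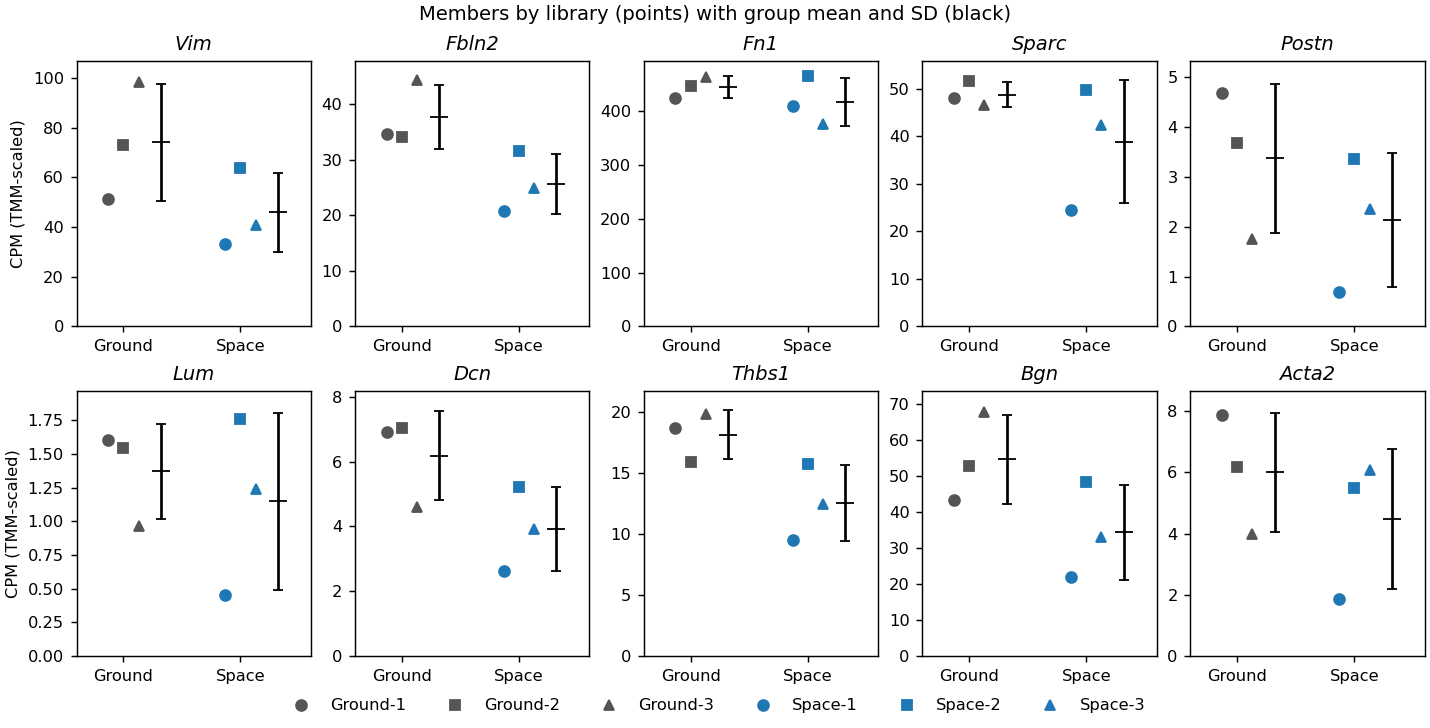
CPM (vertical axis, from 0, TMM-scaled) of each of the 10 genes in the 3 Ground libraries (grey) and 3 Space libraries (blue). The marker shape gives the replicate number, which was not used to pair libraries, and the black bar gives the group mean and SD. Space-1 was the lowest library for 9 of the 10 genes, and Fn1 was nearly level.

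Vim (ENSMUSG00000026728, chromosome 2, 13573927 to 13582826 on GRCm38, plus strand) encodes vimentin. In the order of the replicate numbers, which is kept throughout, Ground held 51.1, 73.0 and 98.3 CPM and Space 33.3, 63.7 and 40.8 CPM. Space-2 lay above Ground-1, so the groups overlapped, although Ground-3 was the highest and Space-1 the lowest of the 6 libraries. The means were 74.2 ± 23.6 and 45.9 ± 15.8 CPM (SD, n = 3). The fitted log2 fold change was -0.70 (SE 0.29), or 61.7% of the Ground level. The spread within each group was about as wide as the step between the groups, and without Space-1 the log2 fold change was -0.51 (SE 0.28). Without Ground-3, the library with the most Vim, it was -0.43.

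The start of Vim that RefSeq annotates is preceded by a TATA box, the element that places the start of transcription in many strongly regulated genes. The 30 bases at chr2:13574266-13574295 (GRCm38.p6, plus strand), which end 16 bases before that start, are shown with the TATA box in capitals; in GENCODE M21 they also lie within an exon of other Vim transcripts.
Vim: ttcctaacagtgtTATAAAagcagcgccct

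Fbln2 (ENSMUSG00000064080, chromosome 6, 91212455 to 91272540) encodes fibulin-2, a glycoprotein of basement membranes and elastic fibres. Its values were 34.7, 34.1 and 44.3 CPM in Ground and 20.8, 31.5 and 24.8 CPM in Space. Every Space library lay below every Ground library, though Space-2 came close to Ground-2. The means were 37.7 ± 5.72 and 25.7 ± 5.40 CPM (SD, n = 3). On the log2 scale the difference was -0.56 (SE 0.17), and -0.42 without Space-1. Fbln1, which encodes the related fibulin-1, was several times more abundant and level, with 131.0, 125.4 and 128.1 CPM in Ground and 121.4, 128.3 and 136.0 CPM in Space (log2 fold change 0.0043, SE 0.060). Fbln1 was singled out after its values were seen. Among other genes of the family, Efemp2 was also level (log2 fold change 0.00030, SE 0.16). Lower in Space, with errors that were wide, were Fbln5 (-0.62, SE 0.40), Efemp1 (-0.31, SE 0.42) and Fbln7 (-0.25, SE 0.46).

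Fn1 (ENSMUSG00000026193, chromosome 1, 71585520 to 71653200), the fibronectin gene, was the exception among the 10. It had 424.0, 445.7 and 464.1 CPM in Ground and 410.2, 464.5 and 376.1 CPM in Space. The groups overlapped, with Space-2 the highest and Space-3, not Space-1, the lowest of the libraries. Its log2 fold change was -0.093 (SE 0.084), and the highest library held 1.24 times the CPM of the lowest, where the corresponding ratio was 2.09 to 6.70 in the other 9 genes. Fn1 made up between 61.7% of the summed CPM of the 10 genes, in Ground-3, and 78.0%, in Space-1. An antisense gene, Apol7d, overlaps exons of Fn1, and whether reads were counted by strand is not given in the sources used here.

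The matricellular genes were Sparc, Thbs1 and Postn. Sparc (ENSMUSG00000018593, chromosome 11, 55394500 to 55423183) encodes a collagen-binding glycoprotein. It had 47.9, 51.6 and 46.5 CPM in Ground and 24.5, 49.7 and 42.3 CPM in Space, so that Space-1 stood apart from 5 libraries at similar levels. The log2 fold change of Sparc was -0.33 (SE 0.22) with all libraries and -0.084 (SE 0.10) without Space-1.

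Thbs1 (ENSMUSG00000040152, chromosome 2, 118111876 to 118127133) encodes thrombospondin-1, which binds cell surface receptors and latent TGF-β. It had 18.7, 15.9 and 19.9 CPM in Ground and 9.51, 15.8 and 12.5 CPM in Space. The groups did not overlap, but Space-2 and Ground-2 were nearly level. The log2 fold change was -0.53 (SE 0.19), and -0.37 without Space-1. A noncoding gene on the opposite strand, Gm29233, overlaps exons of Thbs1, so the reads of the pair may be mixed.

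Postn (ENSMUSG00000027750, chromosome 3, 54361109 to 54391037), the periostin gene, varied most. It had 4.69, 3.67 and 1.75 CPM in Ground and 0.70, 3.36 and 2.36 CPM in Space. The Space-1 value rested on 17 counts, with an exact 95% Poisson interval of 0.41 to 1.12 CPM that covers counting error only. Ground-3 was the lowest Ground library for Postn, whereas it was the highest for Vim. The log2 fold change was -0.67 (SE 0.55) with all libraries and -0.25 (SE 0.41) without Space-1, both small beside their errors.

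The sequence before an annotated start of Postn, the RefSeq start nearest to that of GENCODE, also held a TATA box (capitals). It is shown as the 250 bases at chr3:54360857-54361106 (GRCm38.p6, plus strand).
Postn: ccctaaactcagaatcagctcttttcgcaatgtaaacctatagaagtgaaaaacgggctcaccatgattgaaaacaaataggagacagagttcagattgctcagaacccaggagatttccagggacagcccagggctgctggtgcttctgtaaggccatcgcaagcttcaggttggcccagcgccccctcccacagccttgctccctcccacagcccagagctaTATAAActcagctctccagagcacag

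The small leucine-rich proteoglycans were Bgn, Dcn and Lum. Bgn (ENSMUSG00000031375, chromosome X, 73483602 to 73495933) had 43.3, 52.7 and 67.8 CPM in Ground and 21.8, 48.2 and 32.9 CPM in Space. As for Vim, Ground-3 was the highest and Space-1 the lowest library, and Space-2 lay above Ground-1. The means were 54.6 ± 12.4 and 34.3 ± 13.2 CPM (SD, n = 3). This gave a log2 fold change of -0.67 (SE 0.28), and of -0.43 without Space-1.

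Unlike Vim and Postn, Bgn had no TATA box in the 250 bases before its start, at chrX:73483351-73483600 (GRCm38.p6, plus strand), which held 3 matches to the GC box GGGCGG, all on the opposite strand and 2 of them overlapping (capitals).
Bgn: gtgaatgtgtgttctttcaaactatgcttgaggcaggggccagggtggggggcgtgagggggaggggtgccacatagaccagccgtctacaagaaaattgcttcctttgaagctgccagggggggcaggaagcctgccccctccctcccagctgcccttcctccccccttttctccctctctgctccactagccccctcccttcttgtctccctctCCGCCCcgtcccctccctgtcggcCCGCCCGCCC

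RefSeq windows were at hand for 6 of the 10 genes (Vim, Fbln2, Sparc, Postn, Bgn and Acta2). The TATA box TATAAA was in the window of Vim, in the Postn window shown above and in 13% of 27025 gene windows of 250 bases. The GC box GGGCGG was in those of Fbln2 and Bgn and in 32.9% of all. Postn has another RefSeq window, at chr3:54359017-54359266, which held no TATA box. The shares over all genes used the first listed window of each gene, which for Postn is that other window. Both strands were searched. The letters of the AP-1 site TGANTCA (6.87% of all windows) were in none of the windows of the 6 genes. The strict letters of the CArG box CCWWWWWWGG, where W is A or T (1.4% of all), were in none of them either. The Acta2 window did hold the near matches ccctatatgg and ccttgtttgg, each with a C or G among the W letters. Such near matches were not searched for in the other windows. The MCAT element CATTCC was in that of Acta2 (12.6% of all). The letters are a description and show no bound factor.

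Dcn (ENSMUSG00000019929, chromosome 10, 97479609 to 97518143) encodes decorin, which binds collagen fibrils. It had 6.92, 7.03 and 4.603 CPM in Ground and 2.64, 5.22 and 3.92 CPM in Space, with Space-2 above Ground-3. Its log2 fold change was -0.66 (SE 0.29), and -0.44 without Space-1. Lum (ENSMUSG00000036446, chromosome 10, 97565128 to 97572703), the lumican gene that lies next to Dcn, had 1.61, 1.54 and 0.96 CPM in Ground and 0.45, 1.76 and 1.24 CPM in Space, on 11 to 39 counts a library. Space-2 was the highest of the 6 libraries for Lum. The log2 fold change of Lum was -0.27 (SE 0.48), and it turned to 0.12 (SE 0.36) without Space-1.

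Acta2 (ENSMUSG00000035783, chromosome 19, 34241090 to 34255590) encodes smooth muscle α-actin. It had 7.86, 6.18 and 3.99 CPM in Ground and 1.85, 5.49 and 6.08 CPM in Space. Only Space-1 lay below the Ground libraries. The log2 fold change was -0.43 (SE 0.43) and was -0.055 (SE 0.29) without Space-1. Related muscle actin genes can share reads with it, but they were scarce: Actg2 had 6 counts and Actc1 1 count over all libraries, and Acta1 had 0.64 to 1.61 CPM.

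**Figure D2:**
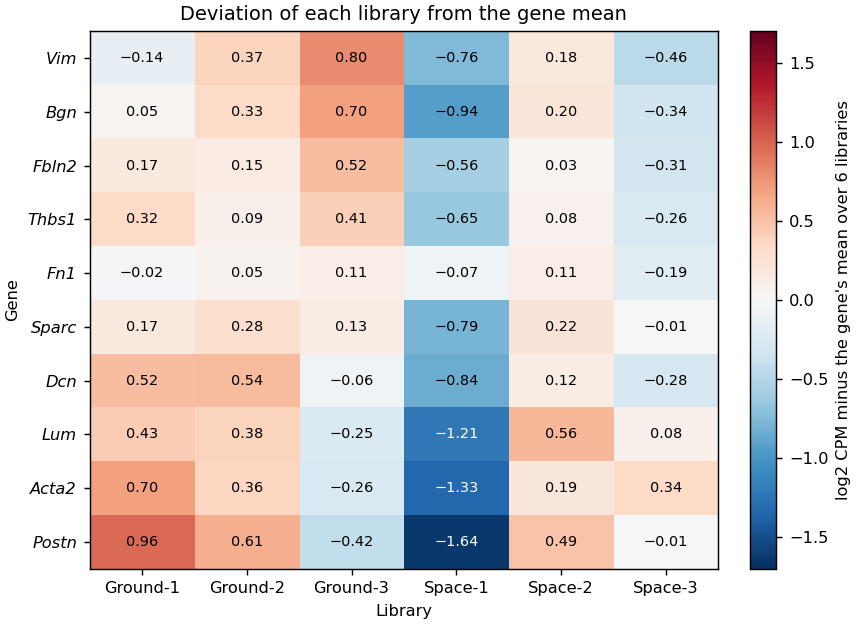
Each cell gives log2 CPM of a gene (rows) in a library (columns) minus the mean of that gene over the 6 libraries; red is above and blue below the mean. Space-1 was 0.56 to 1.64 below the mean in all genes but Fn1 (-0.07), and Ground-3 was 0.80 above it for Vim but -0.42 for Postn.

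The libraries were not ordered the same way by each gene. Ground-3 was the highest library for 4 genes, Vim, Bgn, Fbln2 and Thbs1 (19.3% of all genes tested were highest there). For Postn, Acta2, Lum, Dcn and Sparc, Ground-3 was instead the lowest Ground library. Space-1 was the lowest library for 9 of the 10 genes, where 20.4% of all genes tested were lowest there. It lay below all 3 Ground libraries for 10 of 10 genes, Space-3 for 7 and Space-2 for 2, where the shares over all genes tested were 24.2%, 22.2% and 18.5%. Space-1 and Ground-3 were nearest neighbours over the most variable genes, and yet they stood at opposite ends for Vim, Bgn, Fbln2 and Thbs1. In Space-1 the summed CPM of the 9 genes other than Fn1 was 115.6, against 166.9 and 224.6 in the other Space libraries and 216.8 to 288.1 in Ground. Excluding Space-1, the median log2 fold change of the 10 genes was -0.31 and 9 of 10 were lower in Space.

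**Figure D3:**
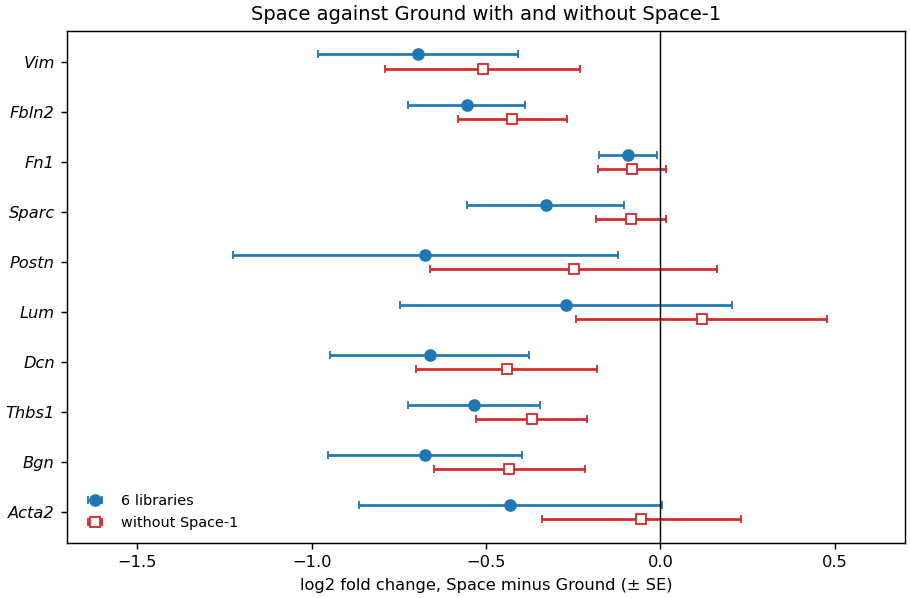
Log2 fold change of Space relative to Ground (horizontal axis) with its standard error for each of the 10 genes, from all 6 libraries (filled circles) and without Space-1 (open squares). The values move toward 0 without Space-1 for all 10 genes, least for Fn1, and Lum crosses to 0.12.

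Levels of the 10 genes per length of transcript differed widely. RPKM, the scaled CPM divided by the exonic length in kilobases, averaged 36.9 ± 2.95 for Fn1 (SD over 6 libraries), which placed it above 90.5% of the genes tested. It was followed by Vim with 12.7 ± 5.002, Sparc with 11.6 ± 2.63, Bgn with 7.29 ± 2.61 and Fbln2 with 4.98 ± 1.29 RPKM, the last of them just under the median of 5.24 RPKM over all genes with a known length. Thbs1 (2.53), Acta2 (2.39), Dcn (0.87), Lum (0.52) and Postn (0.32) were lower still. The range of Fn1 over the libraries was separate from that of Vim, whereas the range of every other gene overlapped with that of the next. Within a library, Vim and Sparc changed places between libraries, as did Thbs1 and Acta2. All other neighbours kept this order in each of the 6 libraries.

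**Figure D4:**
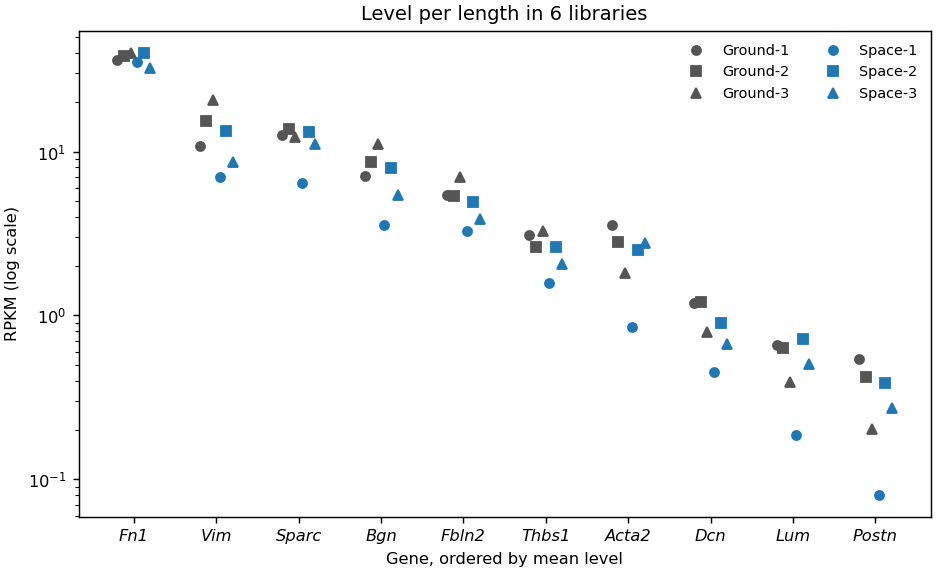
Level per length in RPKM (vertical log axis) of the 10 genes, ordered by their mean, with 1 point a library (grey, Ground; blue, Space). Fn1 lies between 32.2 and 39.8 RPKM in every library, and Postn between 0.080 and 0.54.

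Of the other gene lists, written from general knowledge with earlier results of these data known, those closest to the 10 genes in function were compared by counts and medians. No gene of any list passed the test, as none did in the table (0%). Among matricellular and adhesive matrix genes, 14 of 18 tested were lower in Space, with a median log2 fold change of -0.41, and of -0.24 without Space-1. The most abundant were Smoc1 (log2 fold change 0.012, SE 0.37), Spp1, the osteopontin gene (-0.41, SE 0.19), Smoc2 (0.0035, SE 0.11) and Tnc, the tenascin-C gene (-0.36, SE 0.12). All 3 Space libraries lay below all 3 Ground libraries for 4 of the 18, Tnc, Ccn1, Ccn2 and Srpx2, where 1.98% of all genes tested did. Srpx2 rested on few counts, with 0.16 to 0.28 CPM in Space, where 3 counts equal 0.12 to 0.16 CPM. Ccn1 and Ccn2 encode matricellular proteins often used as readouts of serum and mechanical signalling. Ccn1 had 7.29, 5.64 and 7.10 CPM in Ground and 3.38, 4.26 and 4.84 CPM in Space, and Ccn2 had 1.56, 2.24 and 2.02 CPM in Ground and 1.11, 1.28 and 1.20 CPM in Space. For Ccn2 the Space values were close together, and Space-1, though the lowest, did not stand apart from Space-2 and Space-3 as it did for Sparc. At these CPM Ccn2 rested on far fewer counts than Sparc, so the closeness of its Space values is uncertain.

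For genes of elastic fibres and basement membrane the median was -0.038, with 13 of 21 tested lower in Space. Of these 21, Eln and Mfap4, which encode elastin and an elastic microfibril protein, had all Space libraries below Ground (1.98% of all genes tested). Both rested on few counts, and the gaps were small. The nearest libraries were Space-2 with 1.12 and Ground-1 with 1.15 CPM for Eln, and Space-3 with 1.24 and Ground-1 with 1.44 CPM for Mfap4. The most abundant genes of the list encode nidogens, a laminin chain and perlecan. Their log2 fold changes were 0.0024 for Nid2 (SE 0.15), -0.00062 for Lamb1 (SE 0.099), -0.038 for Nid1 (SE 0.16) and 0.016 for Hspg2 (SE 0.092). For Nid2 the Ground mean was 517.8 ± 90.2 CPM and the Space mean 518.7 ± 88.0 CPM (SD, n = 3), so that, like Fn1, it was abundant and differed little in its means. Other proteoglycan genes had a median of -0.052 with 8 of 11 tested lower. Their most abundant gene, Sdc4, encodes the fibronectin co-receptor syndecan-4, with 758.0 ± 42.6 and 766.6 ± 54.3 CPM. Sdc1 (-0.056, SE 0.12), Gpc1 (-0.12, SE 0.091) and Gpc3 (-0.10, SE 0.17) followed.

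Genes of the mesenchymal cytoskeleton had a median of -0.063, with 19 of 24 tested lower in Space. The most abundant were Myh9 (log2 fold change -0.0053, SE 0.075), Flna (-0.022, SE 0.078), Plec (0.072, SE 0.34) and Nes (0.0098, SE 0.21), which encode nonmuscle myosin, filamin A, plectin and nestin. Cald1, for caldesmon, was the only gene of this list whose groups did not overlap (1.98% of all genes tested had all Space libraries below Ground). It had 24.5, 22.7 and 24.2 CPM in Ground and 14.7, 20.5 and 19.3 CPM in Space. Cnn1 and Actg2, markers of differentiated smooth muscle, had 0 to 5 counts a library.

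Receptors for matrix components were lower in 11 of 11 tested, where 51.3% of all genes tested were lower. Their median was -0.080 and turned to 0.014 without Space-1. The values reached from -0.0015 for Met to -0.33 for Ddr2 and -0.45 for Cd44, a hyaluronan receptor. Cd44 was the only one of them whose groups did not overlap (1.98% of all genes tested had Space below Ground). That gap was small, from 3.72 CPM in Space-3 to 3.73 CPM in Ground-3. Lrp1 (-0.0039, SE 0.075), Itgb1 (-0.0043, SE 0.078), Itgb5 (-0.077, SE 0.11) and Itgav (-0.080, SE 0.16) were the most abundant. Regulators of mesenchymal genes had a median of -0.019, with 18 of 24 lower. The groups did not overlap for Tgfb3 (-0.55, SE 0.25) and Yap1 (-0.041, SE 0.051), again beside 1.98% of all genes tested. For Yap1 the nearest libraries were Space-2 with 87.7 CPM and Ground-1 with 88.0 CPM. The lowest log2 fold change of these regulators was that of Twist2 (-1.51, SE 0.57), which is also in the fibroblast list and whose groups overlapped. Twist2 had only 0.16 CPM in Space-1, where 3 counts equal 0.12 CPM. Srf and its cofactors Mrtfa and Mrtfb, which control actin genes, had log2 fold changes of 0.041 (SE 0.16), 0.058 (SE 0.069) and -0.023 (SE 0.096), and Smad2, a transducer of TGF-β signals, of 0.015 (SE 0.061).

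**Figure D5:**
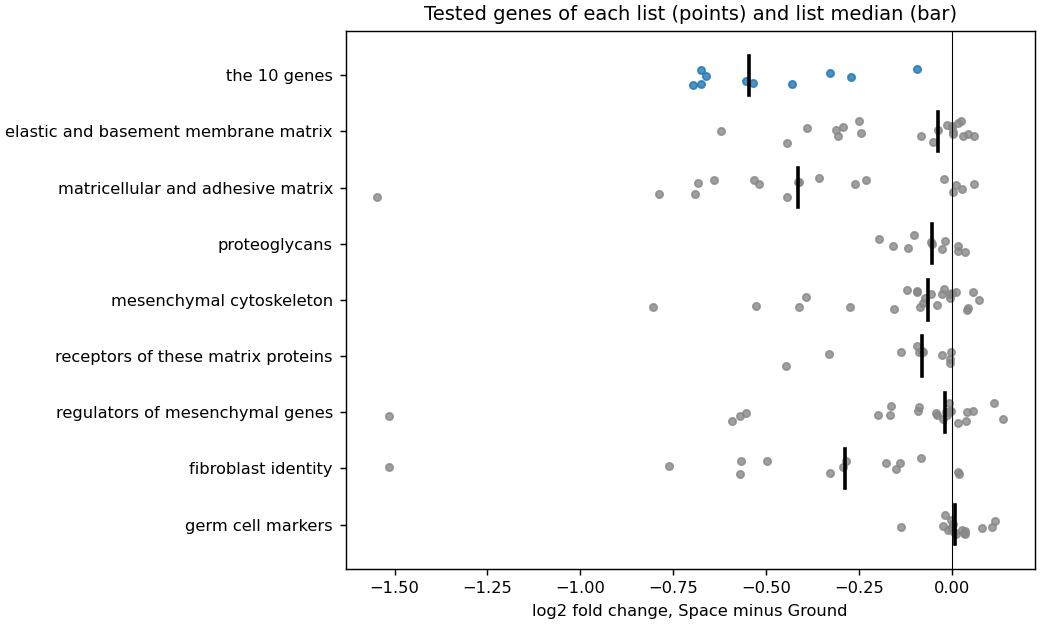
Log2 fold change of Space relative to Ground (horizontal axis) for each tested gene (points) of the 10 genes and of 8 lists (rows); the black bar is the median of a list. The medians of the 10 genes (-0.55), the matricellular list (-0.41) and the fibroblast list (-0.29) lie farthest below 0, and that of the germ cell list lies at 0.0087.

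Markers of other cell types were read beside the 10 genes. Fibroblast identity genes were lower in Space in 12 of 14 tested, with a median log2 fold change of -0.29, and of -0.031 without Space-1. Their summed level ran from 472.5 to 542.3 CPM in Ground and from 390.4 (Space-1) to 522.1 CPM in Space, and all 16 were detected. The groups were not separated by that sum (508.8 ± 34.98 and 474.0 ± 72.7 CPM, SD, n = 3, with a 2-sided exact permutation p of 0.6, 0.9 after adjustment for 6 lists, where 0.1 is the smallest the design allows). Most of it came from Col5a1 (log2 fold change 0.020, SE 0.12) and Col1a1 (-0.14, SE 0.099), whereas Col1a2 (-0.57, SE 0.22) and Col3a1 (-0.50, SE 0.21) were lower. Col1a2 had 33.8, 29.7 and 30.03 CPM in Ground and 13.3, 26.0 and 24.0 CPM in Space, with Space-1 lowest as for 9 of the 10 genes. Col1a2 and Loxl1 (-0.76, SE 0.26) were the genes of this list whose groups did not overlap, where 1.98% of all genes tested had Space below Ground. Pdgfra, a receptor of fibroblasts, had 14.9 to 17.5 CPM in Ground and 14.4 (Space-1) to 16.9 in Space. Other markers fell further in Space-1, such as Lox (2.88 against 6.44 to 9.80 CPM in Ground) and Cd34 (1.73 against 3.09 to 3.90 CPM). For each tested gene of this list Space-1 lay below all Ground libraries, where 24.2% of all genes tested did. The part of feeder cells in the lower values of Space-1 was not tested, and in bulk RNA fewer cells of a type and less RNA per cell cannot be told apart.

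The germ cell list had a median log2 fold change of 0.0087, with 6 of 16 lower in Space, and sums of 4703 ± 247.3 and 4741 ± 215.8 CPM (SD, n = 3, with an exact permutation p of 0.8, adjusted 0.9). Its most abundant genes, Dazl, Uchl1, Piwil2 and Ret, had log2 fold changes between -0.023 and 0.027. Sertoli cell markers summed to 29.0 to 39.3 CPM in Ground and 29.9 to 37.5 in Space, with Fshr at 0 in every library, and were led by Wt1, Sox9, Clu and Inha. Peritubular myoid and Leydig cell markers summed to 9.82 to 11.02 and 8.36 to 11.8 CPM, with Hsd3b1 at 0 and Cyp17a1 at 1 count in all. They were led by Star, Des and Myh11. Macrophage markers summed to 14.5 to 27.9 and 17.6 to 27.7 CPM, mostly from Cd68 and Mrc1, followed by Ptprc, with Adgre1 at 1 count and Lyz2 at or under 3 counts in all. Endothelial markers, led by Pecam1, Kdr, Cdh5 and Tek, summed to 12.1 to 22.0 and 11.5 to 20.5 CPM. For these 4 sums the difference between the groups was within the spread (exact permutation p = 0.6 to 0.9, adjusted 0.9). The differences in the germ cell and fibroblast sums turned when Ground-3 or Space-3, and Space-1, were left out (-84.0, -58.4 and 6.89 CPM, Space minus Ground).

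To place the 10 genes among the rest, 10844 other genes with a mean of at least 5 CPM were ranked by Pearson's r of log2 CPM over the 6 libraries. Those most like Vim included S100a4 (r = 0.99), which encodes a calcium-binding protein of fibroblasts, Tmsb4x (0.98), which encodes the actin-binding thymosin β4, Timp2 (0.98), an inhibitor of matrix metalloproteinases, and Higd1a (0.98). S100a4 had a log2 fold change of -0.80 (SE 0.36) and Higd1a only -0.060 (SE 0.066), so that a like order of the libraries came with unlike sizes. The 5 genes most like the mean centred profile of the 10 were Thbs2 (0.99), the thrombospondin-2 gene, Ahnak (0.98), Ikzf4 (0.98), Csf1 (0.97), which encodes a macrophage growth factor, and Col4a2 (0.97). Thbs2 had 7.70, 7.72 and 7.36 CPM in Ground and 3.17, 7.62 and 6.04 CPM in Space, with Space-1 again set apart. All these values of r share the same 6 libraries and were picked as the highest of the ranking, and they are given as a description.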

How the data were processed

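Values were the raw read counts per gene that the authors deposited, in a single table that holds each library in its own column, with nothing pooled. The submitters' processing notes name bcl2fastq 2.20, cutadapt 4.1, HISAT2 2.2.1, HTSeq 2.0.2 and mm10, and the study's methods name the GENCODE M21 annotation and another cutadapt version. Notes and methods also differ on library kit, sequencer and read layout. Counting mode and strand setting are not given in the sources used here, so reads of overlapping genes may be misassigned.

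Counts were filtered with filterByExpr, scaled by TMM and tested with edgeR 4.0.16 in R 4.3.3 (2-sided quasi-likelihood test, all 6 libraries, no replicate block, Benjamini-Hochberg adjustment over 15104 genes, threshold 0.05). Log2 CPM used a prior count of 2, the SE is the log2 fold change divided by the square root of F, and RPKM used union exon lengths of GENCODE M21 (GRCm38, the assembly of mm10). Alternatives were DESeq2 1.42.0, limma-voom (limma 3.58.1), RLE scaling, total counts, other filters, a replicate block and leaving out each library. The procedures were tested on simulated counts.

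The members and lists were chosen with earlier results of these data known. The genes named from each list were the 4 of highest mean CPM among those tested, and the 5 most like Vim and the 5 most like the mean profile. A gene that this rule names is not reported here. Further genes were picked with their values in view: Ddx4, Zbtb16, Fbln1, Fbln5, Fbln7, Efemp1, Efemp2, Ccn1, Ccn2, Srpx2, Eln, Mfap4, Cald1, Met, Ddr2, Cd44, Tgfb3, Yap1, Twist2, Loxl1, Pdgfra, Lox, Cd34, Apol7d and Gm29233, the muscle actin genes, and the markers at or near 0. The study speaks of separate lines, but no label assigns a library to a line, so p-values measure the spread between these libraries as labelled. Replicate numbers were not treated as pairs.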

Additional observations from a re-analysis of the deposited data

How the results depend on the processing

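The count of 0 genes past the threshold held in all 13 alternatives, with 45 (DESeq2) to 192 (no filter) genes at an unadjusted p under 0.05 in the fits on all libraries, and 64 to 161 without one library. The deviations of same-numbered libraries had r of -0.48, 0.28 and -0.60 for numbers 1 to 3. With 3 libraries a group these values cannot settle whether the numbers pair the libraries, and no label says so. With the replicate block 0 genes passed, 63 had an unadjusted p under 0.05, and the median log2 fold change of the 10 genes was -0.56.

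Scaling, filters and tools moved no value of the 10 genes by more than the spread between replicates. Of their 143 alternative values, 142 were negative, counting the median of the 10 and the replicate block, and the exception was Lum without Space-1. Without one library the median lay between -0.72 and -0.31. The ranges were -1.001 to -0.43 for Vim, -0.72 to -0.42 for Fbln2, -0.18 to -0.023 for Fn1, -0.54 to -0.084 for Sparc, -1.14 to -0.25 for Postn, -0.69 to 0.12 for Lum, -0.91 to -0.44 for Dcn, -0.72 to -0.37 for Thbs1, -0.99 to -0.43 for Bgn and -0.73 to -0.055 for Acta2. The median of the matricellular list lay between -0.46 and -0.24 and that of the 3 tested macrophage genes between -1.26 and 0.88. The difference in the summed CPM, Space minus Ground, lay between -84.0 and 151.5 for the germ cell list (-84.0 without Ground-3, -58.4 without Space-3) and between -58.8 and 6.89 for the fibroblast list (6.89 without Space-1). The cause was not tested. Depth limits Lum and Postn most, with 11 and 17 counts in Space-1.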
